A study of Homo sapiens with 9 samples.

Results

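Genes that mark the mesenchymal state of neuroblastoma and the extracellular matrix around it were followed in LAN-5 cells, an established human neuroblastoma line, with and without the extracellular protein S100B. The set had 10 genes, ANXA2, COL4A1, COL4A2, THY1, VIM, FN1, CD44, ANXA1, SPARC and TIMP1, and its members were all probe sets that the probe-to-gene table assigns to 1 of these symbols alone. These were 9 probe sets of 8 genes, out of 7840 probe sets of 7713 genes in the whole table. CD44 had 2 probe sets and each of the other measured members had 1. COL4A2 and FN1 were not analysed here, since the table used lists no probe set for either. A further probe set is annotated to both SNU13 and ANXA2 and was not counted as a member.

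Total RNA was labelled with biotin and hybridised to 9 single-colour Affymetrix arrays. Of these, 3 came from cells that received culture medium alone (called untreated), 3 from cells given S100B at 0.5 nM and 3 from cells given S100B at 5 µM. By the series' design text, each group's arrays are biological replicates. The cells of all groups came from this 1 commercial line, grown in complete DMEM, and no exposure time is given in the labels used here. The unit is log2 per probe set, so a difference of 1 is a doubling, and the number of arrays limits the precision of every value.

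Neuroblastoma cells can occupy an adrenergic state, close to the sympathetic neuroblast, or a mesenchymal state, which resembles migratory neural crest cells and is marked by vimentin, fibronectin, CD44 and matrix genes. Type IV collagen forms the network of basement membranes, SPARC and TIMP1 are secreted proteins that regulate matrix assembly and its breakdown, and annexins bind membranes when calcium rises. Several annexins work in complexes with proteins of the S100 family, and S100B itself is secreted by glia and binds the receptor RAGE on neurons.

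The start regions of the members differ in base composition and motifs, and 2 are shown because the results turn on ANXA2 and COL4A1. RefSeq (GRCh38.p14) promoter entries were found for 9 of the 10 members, all but THY1. Capitals mark matches to 4 motifs searched on both strands in the 250 bases before each start: the GC box (GGGCGG), the CCAAT box (CCAAT), the AP-1 site (TGANTCA) and the TATA box (TATAAA). The first sequence is the 250 bases before the ANXA2 start, chr15:60397987-60398236 on the minus strand, with 78% G and C. The second is the 126-base stretch between the starts of COL4A1 and COL4A2, which lie head to head and are transcribed away from each other, chr13:110307158-110307283, read on the minus strand, which is that of COL4A1.
ANXA2 upstream: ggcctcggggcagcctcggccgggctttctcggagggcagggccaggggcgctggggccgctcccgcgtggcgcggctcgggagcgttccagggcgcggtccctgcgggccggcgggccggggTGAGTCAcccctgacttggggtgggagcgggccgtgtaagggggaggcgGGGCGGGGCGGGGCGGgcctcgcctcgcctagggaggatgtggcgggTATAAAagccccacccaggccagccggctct
COL4A1-COL4A2 interval: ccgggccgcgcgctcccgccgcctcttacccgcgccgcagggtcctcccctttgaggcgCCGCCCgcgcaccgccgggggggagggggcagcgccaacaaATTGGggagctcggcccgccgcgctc
The ANXA2 stretch holds 3 GC boxes, each sharing a base with the next, 1 AP-1 site and 1 TATA box. The collagen interval holds 1 GC box, read here as its reverse complement, and 1 CCAAT box, also read in reverse, in 80.2% G and C. A GC box stands in 7 of the 9 member promoters, a CCAAT box in 4, a TATA box in 2 (ANXA2 and ANXA1) and an AP-1 site in 1 (ANXA2). Over 35116 promoters the same letters occur in 42.6%, 32%, 10.7% and 6.57%, in that order of motifs. The COL4A1 and COL4A2 windows both contain the interval above, so its GC box and CCAAT box count for both genes. The SPARC window holds none of the 4. A match is a description of the letters and says nothing of which factor binds there in LAN-5.

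The labelled cell type was checked first. Of 19 noradrenergic neuroblastoma markers with a probe set, 16 lay above the filter on dim probe sets, among them the transcription factors PHOX2A, HAND2, GATA3 and ISL1 and the dopamine beta-hydroxylase gene DBH, while the tyrosine hydroxylase gene TH lay below it. The filter left out the 33.3% of probe sets with the lowest mean over the 9 arrays, at or under 5.95. It is a cut by rank and not a call of detection, and 5830 of 8746 probe sets lay above it. Markers of other cells lay above it in 6 of 11 cases for fibroblasts and mural cells, 2 of 10 for endothelium, 2 of 7 for Schwann cells and glia and 7 of 11 for leukocytes. In these lists the fibroblast and mural genes PDGFRA, PDGFRB and RGS5, the endothelial PECAM1, the glial SOX10 and MBP, and the leukocyte genes CD74, HLA-DRA, CD3D, CD3E, CD79A and MS4A1 lay above it, and PDGFRA read 9.15 to 9.61 over the 9 arrays. FAP, PDPN, CDH5, VWF, GFAP and PTPRC lay below it. Over the 9 arrays, the mean level of all measured markers ran from 8.78 to 9.01 for the noradrenergic list. It ran from 6.85 to 6.91 for fibroblasts and mural cells and from 6.13 to 6.27 for leukocytes. For endothelium it ran from 5.66 to 5.77, and for Schwann cells and glia from 5.65 to 5.76. The presence of other cells in the cultures was not tested. In these bulk RNA samples, fewer cells of a type and less RNA per cell cannot be told apart. Array medians ran from 6.6 to 6.64, and arrays correlated at 0.993 to 0.997 within groups and 0.994 to 0.997 between them. A pair of arrays stood apart in their controls. Untreated replicate 1 averaged 8.71 over 18 spike-in probe sets, against 9.04 to 9.45 on the other 8 arrays, and 5 µM replicate 1 averaged 6.95 over 3 ribosomal RNA control probe sets, against 5.79 to 6.16. Differences of the members were also fitted with each of these arrays left out, while those of single genes in the lists below were not.

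No member passed the test for a change at either dose. Differences were fitted with limma over 5830 probe sets above the filter, which held 6 of the 9 member probe sets (ANXA2, COL4A1, THY1, VIM, SPARC and TIMP1), and a probe set was called at an adjusted p below 0.05. At 5 µM against untreated, 0 of the 6 passed it, beside 0.292% of all tested probe sets. At 0.5 nM against untreated, 0 of 6 passed, beside 0% of all, and between 5 µM and 0.5 nM 0 of 6 passed, beside 0.257%. At an unadjusted p under 0.05 the member counts were 1 of 6 for 5 µM against untreated (6.84% of all tested), 0 of 6 for 0.5 nM against untreated (3.29%) and 3 of 6 for 5 µM against 0.5 nM (4.65%). The pairs of groups share arrays, so these counts do not stand alone. With groups of 3 and 3 arrays, the smallest p of an exact permutation test is 0.1, so single genes were judged by limma, which pools the spread over probe sets.

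Arrays of a pair of groups did not overlap for 1 of the 6 members at 5 µM against untreated (ANXA2, lower; 12.3% of all tested probe sets did not overlap), for 2 at 0.5 nM against untreated (COL4A1 higher and ANXA2 lower; 6.98%), and for 2 at 5 µM against 0.5 nM (ANXA2 and COL4A1, both lower; 6.98%). The 3 member probe sets below the filter overlapped in every comparison. The median difference of the 6 was -0.03 at 5 µM against untreated, beside -0.02 over all tested probe sets. It was -0.05 at 0.5 nM against untreated, beside -0.02, and -0.07 between 5 µM and 0.5 nM, beside -0.01. Members with a difference below 0 numbered 5, 4 and 3 of the 6 in those comparisons, and 61.9%, 59.1% and 55.0% of all tested probe sets had one.

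**Figure D1:**
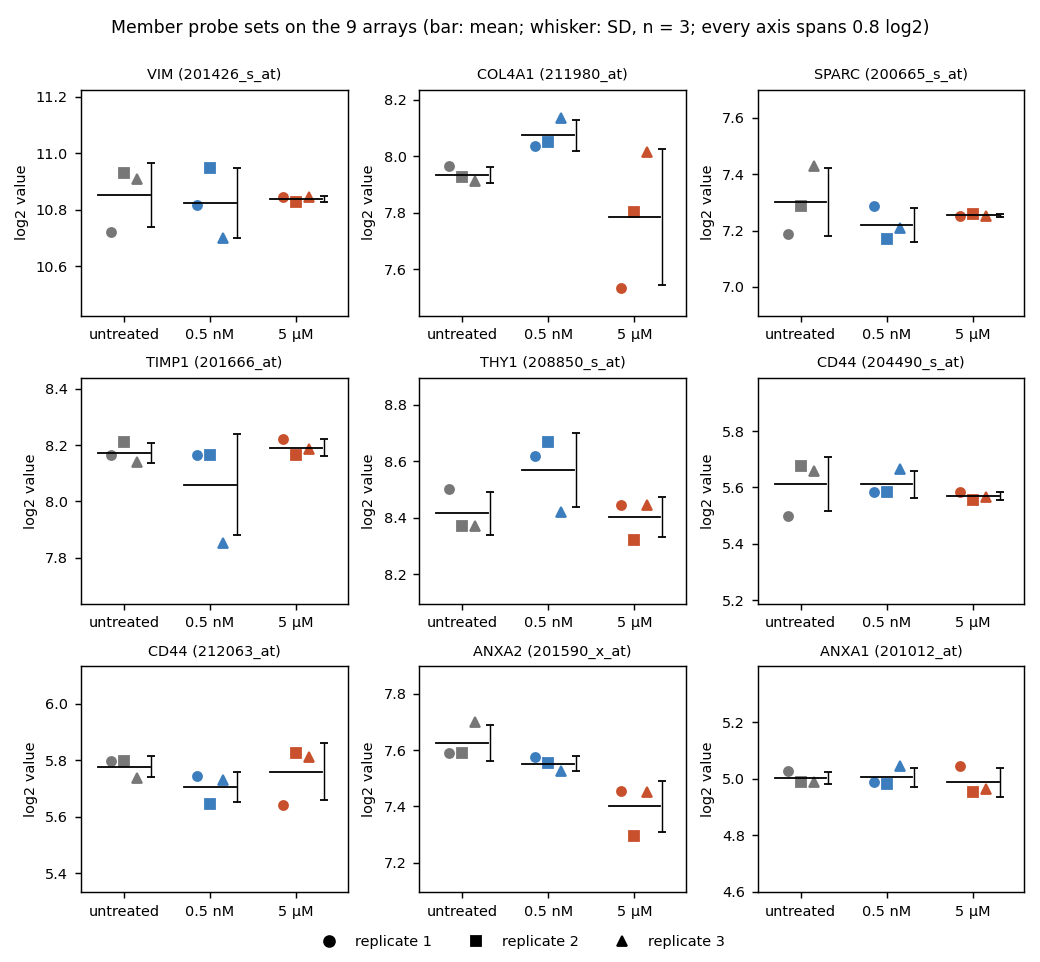
Log2 values of the 9 member probe sets on each array (points, shaped by replicate number), by S100B dose from untreated to 5 µM, with the group mean (bar) and SD over 3 arrays (whisker); every vertical axis spans 0.8 log2 units. ANXA2 was lowest on all 3 arrays at 5 µM, COL4A1 was widely spread at 5 µM (7.53 to 8.01), and ANXA1 stayed within 4.95 to 5.04 on all arrays.

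Among the matrix proteins, COL4A1 encodes the alpha 1 chain of type IV collagen, which assembles with the product of its neighbour COL4A2. Its probe set read 7.96, 7.92 and 7.91 on the untreated arrays, 8.03, 8.05 and 8.14 at 0.5 nM, and 7.53, 7.80 and 8.01 at 5 µM. All 3 arrays at 0.5 nM lay above all others, while the 5 µM arrays fell on both sides of the untreated ones, with replicate 1 the lowest. The means were 7.93 ± 0.03 untreated, 8.07 ± 0.05 at 0.5 nM and 7.78 ± 0.24 at 5 µM (SD, n = 3 each). The 5 µM level was 81.8% of the 0.5 nM level (95% interval 70.2% to 95.2%), a difference of -0.29 ± 0.10 (SE), and limma's adjusted p was 0.924. Against untreated, the difference was -0.15 ± 0.10 at 5 µM (limma's adjusted p = 0.820) and 0.14 ± 0.10 at 0.5 nM (adjusted p = 0.9999).

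The 5 µM replicate 1 array, which also had the high ribosomal RNA control signal, carried much of the COL4A1 difference. Without it, 5 µM differed from 0.5 nM by -0.17 and from untreated by -0.03. Without 5 µM replicate 3, the same differences were -0.41 (limma's adjusted p = 0.123) and -0.27, and without untreated replicate 1 the difference between 5 µM and untreated was -0.14. The part of the ribosomal RNA signal in these values was not tested. The within-group SD of COL4A1, 0.143, was larger than that of 85.9% of tested probe sets, against a median SD of 0.0877.

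SPARC, a secreted collagen-binding glycoprotein, read 7.19, 7.29 and 7.43 on the untreated arrays, 7.29, 7.17 and 7.21 at 0.5 nM, and 7.25, 7.26 and 7.25 at 5 µM. The untreated arrays spanned all but 1 of the others, the second replicate at 0.5 nM, so the groups overlapped. The mean difference from untreated was -0.05 ± 0.07 (SE) at 5 µM, with an interval of 87.5% to 107.1% of the untreated level (limma's adjusted p = 0.933). At 0.5 nM it was -0.08 ± 0.07 (adjusted p = 0.9999). Without untreated replicate 1 these differences were -0.10 and -0.14.

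TIMP1, an inhibitor of matrix metalloproteinases, read 8.16, 8.21 and 8.14 on the untreated arrays, 8.16, 8.16 and 7.85 at 0.5 nM, and 8.22, 8.16 and 8.19 at 5 µM. Replicate 3 at 0.5 nM was the only array under 8.1, and the other 8 lay within 8.14 to 8.22. The value 8.164 recurred on arrays of all 3 groups. Other members also had repeated values, among them SPARC (7.2505), VIM (10.844) and THY1 (8.4444) at 5 µM. The origin of such values, and their part in the small spread of some groups, was not tested. The difference between 0.5 nM and untreated was -0.11 ± 0.08 (SE; limma's adjusted p = 0.9999) with that array and -0.01 without it. The difference between 5 µM and untreated was 0.02 ± 0.08, with an interval of 89.7% to 114.6% of the untreated level (adjusted p = 0.981).

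VIM encodes vimentin, the intermediate filament protein of mesenchymal cells. It read 10.72, 10.93 and 10.91 on the untreated arrays, 10.82, 10.95 and 10.70 at 0.5 nM, and 10.84, 10.83 and 10.84 at 5 µM. The 5 µM arrays lay inside the range of both other groups. The 5 µM level was 99.0% of untreated, with an interval of 88.2% to 111.1%, and limma's adjusted p was 0.984. The 0.5 nM level was 97.9% of untreated, with an interval of 87.3% to 109.9% (adjusted p = 0.9999). Without untreated replicate 1 the difference between 5 µM and untreated was -0.08.

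At the cell surface, THY1 encodes a small GPI-anchored glycoprotein of neurons and fibroblasts. It read 8.50, 8.37 and 8.37 on the untreated arrays, 8.62, 8.67 and 8.42 at 0.5 nM, and 8.44, 8.32 and 8.44 at 5 µM. Replicates 1 and 2 at 0.5 nM were the highest of all 9 arrays, and replicate 3 lay inside the range of the other groups. The 5 µM level was 89.1% of the 0.5 nM level (interval 79.5% to 99.9%), a difference of -0.17 ± 0.07 (SE), and limma's adjusted p was 0.994. The 0.5 nM level was 111.2% of untreated (interval 99.2% to 124.7%, adjusted p = 0.9999) and the 5 µM level 99.1% of it (interval 88.4% to 111.1%, adjusted p = 0.985). Without untreated replicate 1, the difference from untreated was 0.20 at 0.5 nM and 0.03 at 5 µM.

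CD44, the hyaluronan receptor, lay below the filter in both of its probe sets. The probe set with the suffix _s_at ran from 5.50 to 5.68 over the 9 arrays, and the one with the suffix _at from 5.64 to 5.83. In a fit without the filter, over 8746 probe sets, the difference between 5 µM and untreated was -0.04 ± 0.05 for the _s_at and -0.02 ± 0.06 for the _at probe set (SE; limma's adjusted p = 0.888 and 0.969). Between 0.5 nM and untreated, the _at probe set differed by -0.07 ± 0.06 (adjusted p = 0.979) and the _s_at probe set by less than 0.001 in size. The probe sets gave different orders of the groups, and neither showed a group apart from the others. At values this low, a difference in the RNA may be compressed by background, which was not tested.

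Of the annexins, ANXA2 encodes a membrane-binding protein that forms a tetramer with S100A10 and binds plasminogen at the cell surface. Its probe set, of the _x_at kind, read 7.59, 7.59 and 7.70 on the untreated arrays, 7.58, 7.56 and 7.52 at 0.5 nM, and 7.46, 7.30 and 7.45 at 5 µM. Every 5 µM array lay below every other array, and every 0.5 nM array lay below every untreated one, the closest pair of these at 7.58 and 7.59. Array medians ran from 6.6 to 6.64, a wider spread than the gap in that pair. The means were 7.63 ± 0.06 untreated, 7.55 ± 0.03 at 0.5 nM and 7.401 ± 0.091 at 5 µM (SD, n = 3 each). The 5 µM level was 85.6% of untreated (95% interval 78.0% to 93.9%), a difference of -0.22 ± 0.06 (SE). It was the 57th smallest p of 5830 tested, with limma's unadjusted p = 0.00375 and adjusted p = 0.367, and so did not pass the threshold.

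The 5 µM arrays differed from the 0.5 nM arrays in ANXA2 by -0.15 ± 0.06 (SE; limma's adjusted p = 0.994), and the 0.5 nM arrays differed from untreated by -0.07 ± 0.06 (adjusted p = 0.9999). With any 1 array of the compared groups left out, limma's adjusted p for ANXA2 at 5 µM against untreated ran from 0.365 to 0.816. The difference kept its sign, from -0.25 without 5 µM replicate 1 to -0.17 without 5 µM replicate 2. Without untreated replicate 1 it was -0.24. The other ANXA2 signal on the array, the probe set shared with SNU13, averaged 10.67 at 5 µM and 10.67 in untreated cells, a difference under 0.001 (adjusted p = 0.999). It cannot be divided between the 2 genes. RefSeq annotates 3 transcribed ANXA2 pseudogenes (ANXA2P1 on chromosome 4, ANXA2P2 on 9 and ANXA2P3 on 10), and the suffix _x_at marks probe sets whose probes can match other transcripts, so the source of this signal is uncertain to that extent.

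ANXA1, the paralogous annexin that pairs with S100A11, lay near the bottom of the scale and below the filter, at 4.95 to 5.04 on all arrays. In the fit without the filter, it differed from untreated by -0.02 ± 0.04 (SE) at 5 µM and by less than 0.01 at 0.5 nM (limma's adjusted p = 0.965 and 0.999). The ANXA1 arrays of the 3 groups overlapped throughout. Those of ANXA2 did not, but its closest 0.5 nM and untreated arrays read 7.58 and 7.59. At values as low as those of ANXA1, a difference in the RNA may be compressed by background, which was not tested.

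**Figure D2:**
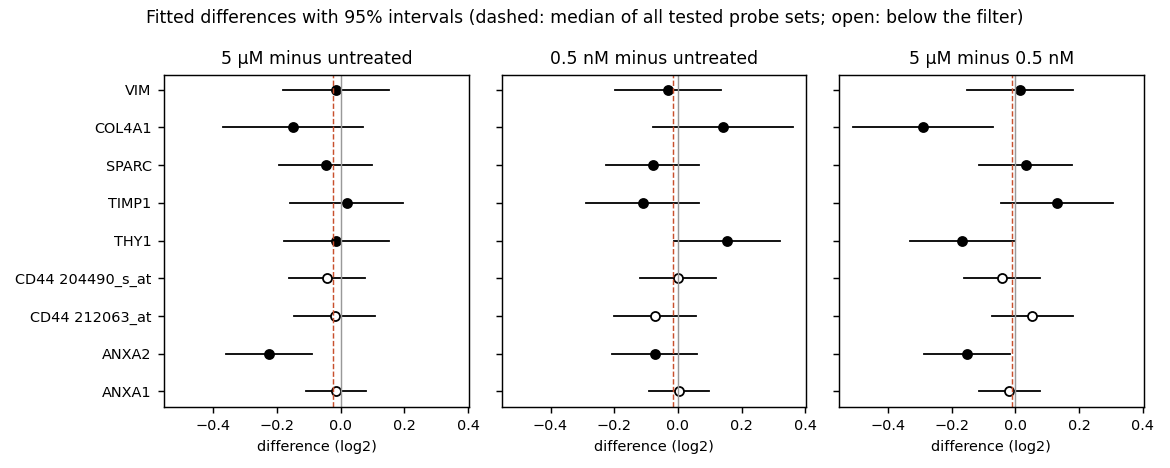
Fitted log2 differences of each member probe set (points) with 95% intervals (lines) in the 3 comparisons; filled points lay above the filter, open points below it, and the dashed line is the median of all tested probe sets. The ANXA2 interval at 5 µM minus untreated runs from -0.36 to -0.09 and the COL4A1 interval at 5 µM minus 0.5 nM from -0.51 to -0.07. The ANXA2 and THY1 intervals at 5 µM minus 0.5 nM also exclude 0, and the others include it.

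The order of the group means differed between members. ANXA2 ran downward with dose, COL4A1 and THY1 were highest at 0.5 nM, and TIMP1, SPARC and VIM were lowest there, but only ANXA2 and COL4A1 had groups that separated. As a description over the 9 arrays, the Pearson correlations between the 6 members above the filter ran from -0.54 (COL4A1 with TIMP1) to 0.61 (VIM with TIMP1), and COL4A1 with ANXA2 had 0.36. These points share arrays, groups and normalisation.

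By the same measure, over 5225 probe sets with 1 symbol, the patterns most like each member were the following. ANXA2 was closest to TIMP2 (r = 0.98), HIVEP3 (0.95) and PCDHB6 (0.94), and the HIVEP3 and PCDHB6 probe sets are also of the _x_at kind. COL4A1 was closest to MAML1 (0.94), TOP2A (0.92) and IGSF3 (0.91), and THY1 to GPS1 (0.93), NFKBIB (0.93) and RPS9 (0.92). VIM was closest to CCS (0.88), PTPRN (0.86) and CCNI (0.86), and SPARC to SLC17A5 (0.95), CHD2 (0.93) and CALB2 (0.92). TIMP1 was closest to RBKS (0.96), SSR1 (0.96) and TAF5L (0.95), but its rank correlation with RBKS was 0.42. The highest correlations of so many over 9 arrays are high by selection. TIMP2, another metalloproteinase inhibitor, read 8.48, 8.48 and 8.58 untreated, 8.48, 8.50 and 8.48 at 0.5 nM, and 8.41, 8.26 and 8.42 at 5 µM. Its 5 µM arrays lay below all others, at -0.15 ± 0.06 (SE) from untreated, and limma's adjusted p was 0.683. The rank correlation of TIMP2 with ANXA2 was 0.81, and both were lowest on 5 µM replicate 2. The TIMP2 value 8.483 recurred on untreated and 0.5 nM arrays.

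Around the members, 9 lists of related genes gave 110 genes above the filter. At 5 µM against untreated 0 of them passed limma's threshold, beside 0.292% of all tested probe sets. At 0.5 nM against untreated 0 passed, beside 0%, and between the doses 0 passed, beside 0.257%. The counts at an unadjusted p under 0.05 follow by list, in the order below. They were 1, 0, 0, 5, 2, 1, 2, 2 and 2 at 5 µM against untreated (6.84% of all tested). For 0.5 nM against untreated they were 0, 0, 0, 0, 0, 1, 1, 0 and 0 (3.29%), and between the doses 1, 2, 1, 2, 1, 0, 3, 0 and 2 (4.65%). At 5 µM against untreated 67 of the 110 had a difference below 0 and their median was -0.03, beside -0.02 over all tested probe sets. The counts below 0 were 61 at 0.5 nM against untreated and 64 between the doses, with medians of -0.01 and -0.02, beside -0.02 and -0.01 over all tested. Of all tested probe sets, 61.9%, 59.1% and 55.0% had a difference below 0, in the same order of comparisons. The smallest adjusted p were 0.285, 0.9999 and 0.740 in these comparisons. Of each list, the gene with the smallest p is named in each comparison.

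Basement membrane genes were mostly dim, and 2 of the 14 with a probe set, the laminin chains LAMB1 and LAMC1, lay above the filter. LAMB1 read 6.54, 6.6 and 6.58 on the untreated arrays, 6.95, 6.78 and 6.50 at 0.5 nM, and 6.78, 7.03 and 7.52 at 5 µM. All 5 µM arrays lay above all untreated ones but differed among themselves by more than 0.7. The difference between 5 µM and untreated was 0.53 ± 0.16 (SE), with limma's adjusted p = 0.478, against -0.15 for COL4A1, which encodes another component of the same membranes. Between 5 µM and 0.5 nM LAMB1 differed by 0.37 ± 0.16 (adjusted p = 0.994), and the arrays of these groups overlapped. LAMC1 differed by 0.02 at 5 µM and by 0.14 ± 0.11 at 0.5 nM (adjusted p = 0.985 and 0.9999).

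Of the interstitial matrix genes, 12 of 31 lay above the filter. At 5 µM against untreated 9 of these had a difference below 0 (61.9% of all tested did), with a median of -0.06. VCAN, the proteoglycan versican, averaged 8.03 at 5 µM and 8.29 in untreated cells, a difference of -0.26 ± 0.14 (SE; limma's adjusted p = 0.756). COL5A2, a fibrillar collagen chain, differed by 0.14 ± 0.07 at 0.5 nM against untreated (adjusted p = 0.9999), and THBS2, a thrombospondin, by -0.12 ± 0.05 at 5 µM against 0.5 nM (adjusted p = 0.994).

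Collagen processing genes lay above the filter in 11 of 14 cases, with a median difference of 0.00 at 5 µM against untreated. SERPINH1, the collagen chaperone HSP47, differed there by -0.09 ± 0.06 (SE; limma's adjusted p = 0.827). CRTAP, a partner of collagen prolyl 3-hydroxylase, differed by -0.09 ± 0.06 at 0.5 nM against untreated (adjusted p = 0.9999) and by 0.18 ± 0.06 at 5 µM against 0.5 nM (adjusted p = 0.945).

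Matrix proteases and inhibitors lay above the filter in 16 of 28 cases. At 5 µM against untreated 10 of the 16 had a difference below 0 (61.9% of all tested did). CTSB, the lysosomal protease cathepsin B, read 8.33, 8.44 and 8.44 at 5 µM, against 8.04, 8.26 and 8.18 in untreated cells. Its 5 µM arrays lay above the untreated ones, by 0.24 ± 0.07 (SE), and limma's adjusted p was 0.478. They also lay above the 0.5 nM arrays, by 0.20 ± 0.07 (adjusted p = 0.945). MMP2, the gelatinase that TIMP2 binds, was named after its values were seen. It averaged 0.13 less at 5 µM than in untreated cells, with 9.88, 10 and 10 at 5 µM against 10.08, 10.08 and 10.11 untreated, and its adjusted p was 0.707. MMP14, the membrane-type protease that activates MMP2, differed by -0.06 ± 0.05 at 0.5 nM against untreated (adjusted p = 0.9999). Its difference at 5 µM against untreated, added after its values were seen, was -0.14 (limma's adjusted p = 0.686). Its 5 µM arrays, at 7.27 to 7.31, lay below all others, at 7.34 to 7.51.

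Matrix receptors lay above the filter in 14 of 20 cases, with a median of -0.01 at 5 µM against untreated. SDC1, the heparan sulphate proteoglycan syndecan 1, differed there by -0.19 ± 0.08 (SE; limma's adjusted p = 0.700), and by -0.19 ± 0.08 at 5 µM against 0.5 nM (adjusted p = 0.994). ITGA9, an integrin alpha chain, differed by -0.11 ± 0.07 at 0.5 nM against untreated (adjusted p = 0.9999).

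Annexins and their S100 partners lay above the filter in 10 of 14 cases. A difference below 0 was seen in 7 of these at 5 µM against untreated (61.9% of all tested) and in 8 at 0.5 nM (59.1%). ANXA6, an annexin of endosomes and the plasma membrane, read 7.78, 7.70 and 7.77 on the untreated arrays, 7.64, 7.66 and 7.52 at 0.5 nM, and 7.64, 7.60 and 7.65 at 5 µM. Arrays at either dose lay below the untreated ones, by -0.12 ± 0.06 at 5 µM and -0.14 ± 0.06 at 0.5 nM (SE; limma's adjusted p = 0.721 and 0.9999). S100A10, the partner of ANXA2, and S100A11, the partner of ANXA1, were named after their values were seen, and they differed from untreated by -0.06 ± 0.06 and -0.02 ± 0.06 at 5 µM (adjusted p = 0.879 and 0.981). Arrays of both genes overlapped between the groups. DYSF, the membrane repair protein dysferlin, differed by -0.12 ± 0.07 at 5 µM against 0.5 nM (adjusted p = 0.994).

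Cytoskeletal genes of mesenchymal cells lay above the filter in 16 of 24 cases. At 5 µM against untreated 11 of these had a difference below 0 (61.9% of all tested did), with a median of -0.05. CNN3, the actin-binding acidic calponin, read 10.24, 10.13 and 10.07 on the untreated arrays, 10.17, 9.94 and 9.81 at 0.5 nM, and 9.78, 9.86 and 9.57 at 5 µM. Its 5 µM arrays lay below all untreated ones, by -0.41 ± 0.10 (SE). That was the smallest adjusted p among the related genes, limma's 0.285. MSN, the membrane linker moesin, differed by 0.14 ± 0.06 at 0.5 nM against untreated (adjusted p = 0.9999), and PLEC, which links vimentin filaments to other structures, by -0.17 ± 0.05 at 5 µM against 0.5 nM (adjusted p = 0.821).

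The list of mesenchymal transcription factors also held the cadherins CDH2 and CDH11 and the receptors AXL, EGFR and MET, and 16 of 31 measured genes lay above the filter. SNAI1 and TWIST1, which repress epithelial genes, lay above it, while SNAI2, ZEB2, PRRX1, FOSL1, YAP1 and WWTR1 lay below. At 5 µM against untreated 8 of the 16 had a difference below 0 (61.9% of all tested did). TCF4, a basic helix-loop-helix factor, differed there by 0.17 ± 0.07 (SE; limma's adjusted p = 0.700), ID1, an inhibitor of such factors, by 0.12 ± 0.07 at 0.5 nM against untreated (adjusted p = 0.9999), and CDH2, N-cadherin, by 0.08 ± 0.05 at 5 µM against 0.5 nM (adjusted p = 0.994).

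TGF-beta signalling genes, of which 13 of 23 lay above the filter, had a median of -0.04 at 5 µM against untreated. INHBA, a subunit of activin, read 6.39, 6.32 and 6.20 on the untreated arrays, 6.38, 6.38 and 6.40 at 0.5 nM, and 6.28, 6.07 and 5.93 at 5 µM. All 5 µM arrays lay below all 0.5 nM ones, by -0.29 ± 0.08 (SE; limma's adjusted p = 0.740), and overlapped the untreated ones, from which they differed by -0.21 ± 0.08 (adjusted p = 0.683). SKI, a repressor of SMAD proteins, differed by -0.10 ± 0.06 at 0.5 nM against untreated (adjusted p = 0.9999).

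**Figure D3:**
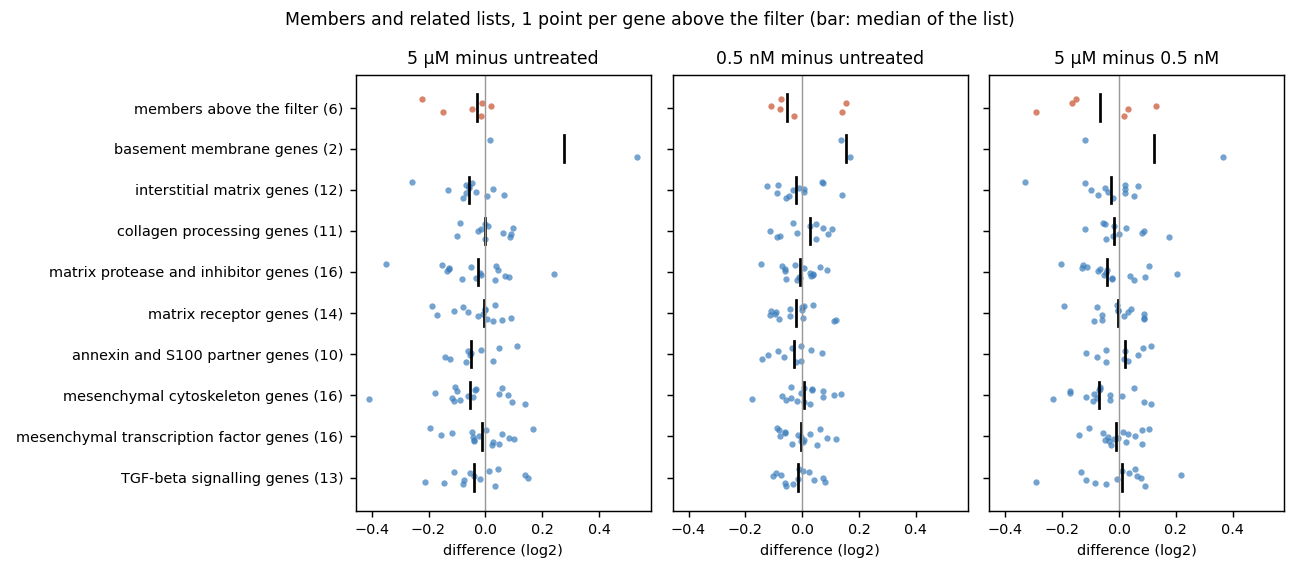
Log2 differences of the 6 members above the filter (top row, orange) and of the genes of the 9 related lists (blue), 1 point per gene, in the 3 comparisons; black bars are list medians and the number of genes stands in brackets. Medians of lists with more than 2 genes lay within 0.07 of 0; LAMB1, at 0.53, and CNN3, at -0.41, lay farthest out at 5 µM minus untreated.

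The noradrenergic markers, which stand for the other state of these cells, had a difference above 0 in 13 of 16 genes at 5 µM against untreated, with a median of 0.09. Over all tested probe sets, 61.9% had a difference below 0 there, and the median was -0.02. None of the 16 markers passed limma's threshold (0.292% of all tested probe sets did), and 2 had an unadjusted p under 0.05 (6.84% of all tested). SLC18A1, a vesicular monoamine transporter, averaged 6.64 at 5 µM and 6.43 in untreated cells, a difference of 0.21 ± 0.06 (SE; adjusted p = 0.463). The mean level of the list ran from 8.88 to 9.01 on the 5 µM arrays and from 8.78 to 8.95 on the untreated ones. LMO1 differed by -0.15 ± 0.07 at 0.5 nM against untreated (adjusted p = 0.9999) and EYA1 by 0.16 ± 0.06 at 5 µM against 0.5 nM (adjusted p = 0.994).

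Of the fibroblast and mural markers, 4 of 6 had a difference below 0 at 5 µM against untreated (61.9% of all tested did), with a median of -0.02. The mean level of the 11 measured ran from 6.85 to 6.88 at 5 µM and from 6.88 to 6.91 untreated. LRRC32 differed from untreated by -0.09 ± 0.06 (SE) at 5 µM and -0.04 ± 0.06 at 0.5 nM (limma's adjusted p = 0.830 and 0.9999). PDGFRA, a growth factor receptor, differed by -0.14 ± 0.10 at 5 µM against 0.5 nM (limma's adjusted p = 0.994). It read 9.15, 9.48 and 9.59 at 5 µM, against 9.55, 9.48 and 9.61 at 0.5 nM. The lowest of these, 9.15, was on 5 µM replicate 1, the array with the high ribosomal RNA control signal. Leukocyte markers had a difference below 0 in 6 of 7 genes at 5 µM against untreated (median -0.04) and in 6 of 7 at 0.5 nM (median -0.07). Of all tested probe sets, 61.9% and 59.1% had one. CD74, the invariant chain of MHC class II, read 6.57, 6.81 and 6.58 on the untreated arrays, 6.42, 6.28 and 6.50 at 0.5 nM, and 6.52, 6.29 and 6.20 at 5 µM. Its arrays at either dose lay below all untreated ones, by -0.32 ± 0.10 at 5 µM and -0.25 ± 0.10 at 0.5 nM (SE; limma's adjusted p = 0.478 and 0.9999), which is farther from untreated than any member at the same dose. The mean level of the 11 measured leukocyte markers ran from 6.15 to 6.24 at 5 µM and from 6.16 to 6.27 untreated, and MS4A1, a B cell gene, differed by 0.11 ± 0.10 at 5 µM against 0.5 nM (adjusted p = 0.994).

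The 2 endothelial and the 2 glial genes above the filter had medians of -0.02 and -0.01 at 5 µM against untreated. EGFL7, secreted by endothelium, differed there by -0.02 ± 0.08 (SE; limma's adjusted p = 0.984), and PECAM1, an endothelial adhesion protein, by -0.12 ± 0.09 at 0.5 nM against untreated and by 0.10 ± 0.09 at 5 µM against 0.5 nM (adjusted p = 0.9999 and 0.994). MBP, a myelin protein, differed from untreated by -0.06 ± 0.06 at 5 µM and -0.05 ± 0.06 at 0.5 nM (adjusted p = 0.904 and 0.9999), and SOX10, a glial transcription factor, by 0.03 ± 0.07 at 5 µM against 0.5 nM (adjusted p = 0.994). The 5 marker lists had 16, 6, 7, 2 and 2 genes above the filter, in the order described. Of these genes, 0 passed limma's threshold in any comparison. Over all tested probe sets, 0.292% passed at 5 µM against untreated, 0% at 0.5 nM against untreated and 0.257% between the doses. At limma's unadjusted p under 0.05 there were 4 at 5 µM against untreated (6.84% of all tested), 1 at 0.5 nM against untreated (3.29%) and 1 between the doses (4.65%). The part of these cell types in the members' values was not tested.

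**Figure D4:**
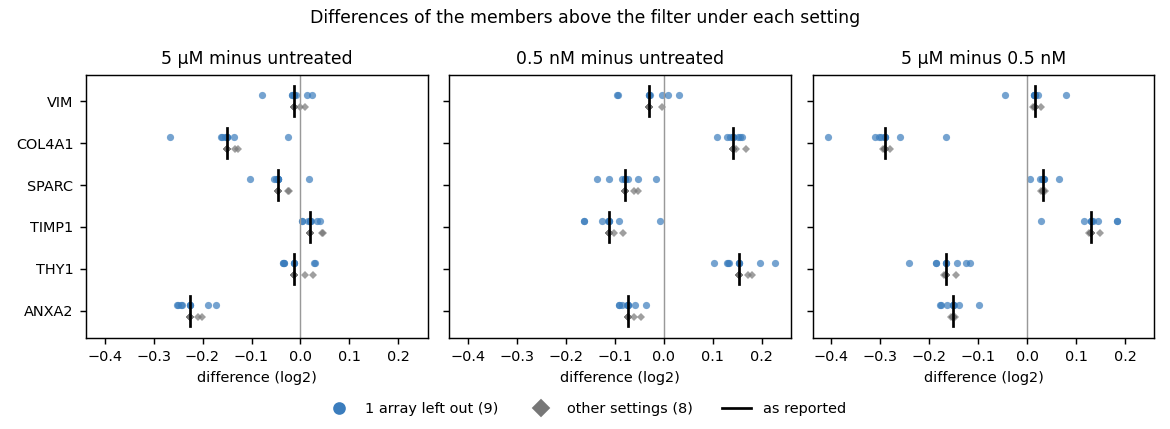
Log2 differences of the 6 members above the filter as reported (black bars), with 1 array left out (blue, 9 points per row) and under 8 other settings (grey diamonds). Of the other settings, only quantile normalization and median centring can move a difference, and of the left-out arrays only those of the compared groups. The remaining points fall on the bar by construction. ANXA2 stayed below 0 throughout. COL4A1 at 5 µM minus untreated ranged from -0.27 to -0.03, and VIM moved across 0 in all 3 comparisons.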

How the data were processed

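The deposited table holds 1 log2 value per probe set and array, made by the authors with GCRMA, per the submitters' processing notes. GCRMA corrects background by probe sequence, normalises between arrays and summarises probes, and it can compress differences near background. The log2 scale was read from the values (4.37 to 14.5). Scanner intensities were not used here. Of 8793 probe sets, 47 manufacturer's controls were taken out, then the 2916 dimmest by mean over all arrays, leaving 5830. Names came from the platform annotation, updated through RefSeq by gene identifier. No array build is stated.

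Groups came from sample titles. limma 3.58.1 in R 4.3.3 (lmFit, eBayes) was fitted to all 9 arrays with 1 factor of 3 groups and no covariate. P-values were adjusted by Benjamini-Hochberg over all tested probe sets. Members below the filter come from a fit of all 8746 probe sets. The code was tested on simulated data.

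The members and lists were chosen with earlier results of these data known. In each list and comparison the gene with the smallest p is named, and for each member above the filter the 3 probe sets with the highest Pearson r. Related genes use the probe set of highest mean. Other filters, scalings, fits and left-out arrays were tried.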

Additional observations from a re-analysis of the deposited data

How the results depend on the processing

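No member passed the threshold as reported, under any of 8 other settings, or with any of the 9 arrays left out, and the smallest adjusted p was 0.123 (COL4A1, 5 µM against 0.5 nM, without 5 µM replicate 3). The other filters and fits, and leaving out an array of the group not compared, leave a difference unchanged. A sign could thus change only under the scalings or with an array of the compared groups left out. Of 441 refitted differences of single members, many of them fixed in this way, 8 changed sign under another setting and 18 with 1 array left out. At 5 µM against untreated, quantile normalization gave 0.026 for THY1 and 0.0033 for the CD44 _at probe set, and median centring gave 0.010 for THY1, 0.0091 for VIM, 0.0048 for the CD44 _at probe set and 0.0081 for ANXA1. At 0.5 nM against untreated, the CD44 _s_at probe set was 0.016 under quantile normalization and 0.027 under median centring. Both scalings moved the median of all probe sets by under 0.03. With 1 array left out, the differences at 5 µM against untreated ran from -0.035 to 0.031 for THY1, -0.080 to 0.024 for VIM, -0.103 to 0.017 for SPARC, -0.051 to 0.040 for the CD44 _at probe set and -0.044 to 0.0018 for ANXA1. At 0.5 nM against untreated they ran from -0.056 to 0.031 for the CD44 _s_at probe set, -0.096 to 0.031 for VIM and -0.016 to 0.015 for ANXA1. Between the doses they ran from -0.045 to 0.080 for VIM and -0.047 to 0.0010 for ANXA1. The members' median ran from -0.091 (without untreated replicate 1) to -0.015 at 5 µM against untreated, and from -0.094 to 0.012 (without 0.5 nM replicate 3) at 0.5 nM against untreated. The count of all probe sets called at 5 µM against untreated was 17, but 7 in a fit of these 2 groups and 1 unmoderated. With 1 array left out it ran from 4 (without untreated replicate 1 or 3) to 17. Without any other array of these groups it was 6 to 9. Between the doses it was 15, but 4, 1, and 3 (without 0.5 nM replicate 3) to 14. These fits have fewer arrays or no pooled spread. Same-numbered arrays correlated in their deviations at -0.00035 to 0.33, over 0.1 in 4 of 9 pairs, and the pairs of replicate 3 at 0.3 to 0.33. Differently numbered arrays correlated at -0.37 to 0.35, over 0.1 in 4 of 18 pairs. Whether the numbers pair the arrays was not tested. The main fit does not pair them, and a fit with the replicate number as a block was run beside it. With the replicate block, 0 members passed (smallest adjusted p 0.326, 0.989 and 0.706) and 15, 0 and 15 probe sets did.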
